A study of Mus musculus with 6 samples.

Results

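Class I odorant receptors are the receptor genes of the large cluster on mouse chromosome 7. They were taken here as the rows of the deposited table whose gene column names an Olfr gene by number and whose locus lies on chromosome 7 between 102 and 106 Mb of the mm10 build. The rule found 125 rows that name 126 receptor genes, out of 1103 odorant receptor rows among 44519 rows in all, and it used no measured value. The rows run from position 102476678 to position 105369355, with 64 on the plus strand and 61 on the minus strand. GENCODE M21 lists 122 of them as protein coding and the other 3 as pseudogenes of kinds that may be intact or transcribed. A merged row covers Olfr639 and Olfr643 together with 4930516K23Rik.

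Bulk RNA sequencing was done on GFP-positive cells sorted from the mouse olfactory neuroepithelium and labelled as horizontal basal cells, the reserve stem cells of this tissue. The TNF group was made up of 3 libraries, replicates 1, 3 and 4. Its mice carried Krt17-EGFP together with Cyp2g1-rtTA and TRE-TNF, so that the sustentacular cell promoter Cyp2g1 drove the doxycycline-dependent activator of a tumor necrosis factor transgene, and inflammation had lasted 6 weeks. The control group was made up of 3 libraries, replicates 1, 2 and 4, of Krt17-EGFP mice described as having had no doxycycline. All 6 libraries carried the Krt17-EGFP reporter, so the 2 transgenes and the drug differ together between the groups and cannot be told apart, and the labels give no age and do not say whether a library came from a single animal.

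An odorant receptor is a G protein-coupled receptor in the cilia of an olfactory sensory neuron, and a mature neuron expresses a single receptor gene from a single allele. Receptors fall into class I, the family shared with fish, and class II, which makes up most of the mammalian repertoire and lies in clusters on many chromosomes. Most class I receptors are expressed by neurons of the dorsal zone of the epithelium, and many respond to carboxylic acids. Odorant receptors are best known as products of neurons rather than of basal stem cells, and the neuron markers of these libraries are given after the receptor values.

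In these libraries class I receptor transcripts were low in control cells and close to absent from the table in TNF cells. Only 15, 3 and 3 of the 125 rows were above 0 in TNF replicates 1, 3 and 4, against 77, 95 and 92 rows in control replicates 1, 2 and 4. The rows together held 1.56, 0.491 and 0.462 FPKM (fragments scaled to transcript length and library size) in TNF libraries and 27.5, 39.9 and 52.1 FPKM in control libraries. Olfr558 and Olfr613 made up nearly all of what was left in TNF replicates 3 and 4, and Olfr599 made up 46.5% of what TNF replicate 1 held.

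The sequences just upstream of Olfr558 and Olfr613 are printed because those 2 rows held most of the class I level of TNF replicates 3 and 4, and that of Olfr544 because it is a named receptor of known ligand with the same kind of annotated start. RefSeq (GRCm38.p6) has a start window for 106 member genes, and for these 3 alone the RefSeq start lay within 100 bases of the deposited start ahead of a spliced leader. The 250 bases end just before the RefSeq start and are written 5′ to 3′ on the strand of the gene. Capitals mark a match to TAATTG or TATAAA. Olfr558 lies at chr7:102702073-102702322 on the plus strand, Olfr613 at chr7:103550118-103550367 on the plus strand, and Olfr544 at chr7:102488308-102488557 on the minus strand.
Olfr558: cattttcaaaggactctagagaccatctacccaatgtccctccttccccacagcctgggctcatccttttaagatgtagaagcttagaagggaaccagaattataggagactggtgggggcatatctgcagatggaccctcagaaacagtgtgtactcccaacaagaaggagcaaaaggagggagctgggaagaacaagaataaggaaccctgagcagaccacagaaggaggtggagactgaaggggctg
Olfr613: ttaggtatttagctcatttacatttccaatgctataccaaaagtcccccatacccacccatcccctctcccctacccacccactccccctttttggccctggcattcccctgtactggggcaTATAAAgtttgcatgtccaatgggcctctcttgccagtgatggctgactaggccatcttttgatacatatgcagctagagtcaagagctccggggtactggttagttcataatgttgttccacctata
Olfr544: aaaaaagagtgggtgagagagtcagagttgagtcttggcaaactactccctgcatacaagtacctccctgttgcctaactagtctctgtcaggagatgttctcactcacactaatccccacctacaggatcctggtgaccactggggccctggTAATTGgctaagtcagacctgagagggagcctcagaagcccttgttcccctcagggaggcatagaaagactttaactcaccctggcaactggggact

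Olfr544 holds 1 TAATTG, a homeodomain-type core of the kind found in receptor promoters, at position −97 from its start, as do 7.17% of 32851 RefSeq windows of the same length. Olfr613 holds 1 TATAAA at position −128, as do 12.4% of windows, and Olfr558 holds neither. TAATTA (4.84% of windows), CCCNNGGG (11.8%, a core of Ebf sites) and the CArG box of smooth muscle promoters (1.47%) were in none of the 3, searched on both strands. The Olfr613 window also matched GENCODE transcripts of 367 non-receptor genes over 100% of its 250 bases, at an identity of at least 80% over at least 100 bases. The Olfr558 and Olfr544 windows matched 0 such genes.

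Detection was examined first, because most class I values were small. A mean of 7 ± 6.93 rows was above 0 in TNF libraries and of 88 ± 9.64 rows in control libraries (SD, n = 3 each). At 1 FPKM or more there were 0, 0 and 0 rows in TNF libraries and 5, 11 and 15 rows in control libraries. The counts of the 2 groups did not overlap at either level, and TNF replicate 1 held more rows than the other TNF libraries. Read depth is not given in FPKM. As a gauge of the small amounts recorded, FPKM times locus length in kb was taken over rows of 0.85 to 1.1 kb. The median of its low values, those above 0 and below 0.065, was 0.927 to 1.08 times that of control replicate 1 in TNF libraries. It was 0.875 to 1.01 times in control libraries. The same limit of 0.065 in every library holds these medians near each other, so they cannot show whether depth differed.

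Seen row by row, 95 of the 125 class I rows were above 0 in a control library and at 0 in all 3 TNF libraries, and 0 rows showed the opposite. That was 84.1% of the 113 rows with any value, where the share over all rows of the table with any value was 14.6%. Control libraries held 56 rows above 0 in all 3, 39 rows in 2, 18 rows in 1 and 12 rows in 0. TNF libraries held 1 row above 0 in all 3, 1 row in 2, 16 rows in 1 and 107 rows in 0. Every control library lay above every TNF library for 54 rows, 47.8% of the rows with any value, against 28.8% of all rows of the table with any value. Over all 125 rows that was 43.2%, against 17.7% of all rows of the table.

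**Figure D1:**
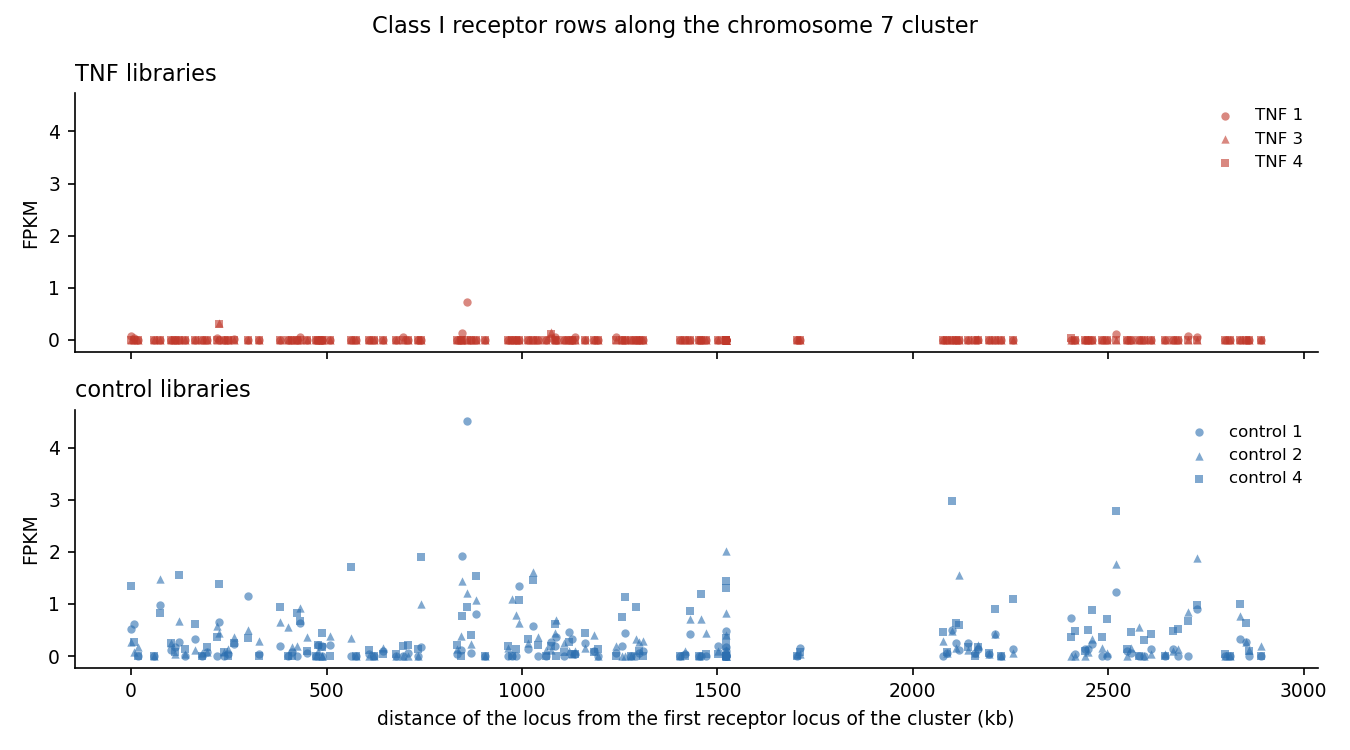
Class I receptor rows by distance of their locus from the first receptor locus of the cluster (kb) and FPKM, with TNF libraries above in red and control libraries below in blue, and a symbol shape for each library. TNF values reach 0.727 FPKM, and control values reach 4.50 FPKM in loci spread over the whole cluster.

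The summed class I level averaged 0.839 ± 0.628 FPKM in TNF libraries and 39.9 ± 12.3 FPKM in control libraries (SD, n = 3 each), a log2 ratio of −5.57. TNF replicate 1 stood at 3.92% of the control mean, TNF replicate 3 at 1.23% and TNF replicate 4 at 1.16%. All 3 lay far below the lowest control sum. Without Olfr558 and Olfr613, a split made after their values were seen, the sums were 1.52, 0.011 and 0.0304 FPKM in TNF libraries and 26.6, 39.4 and 50.5 FPKM in control libraries. In bulk samples fewer cells of a type and less RNA per cell cannot be told apart.

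The fit across all rows (limma with an intensity trend on log2(FPKM + 1), Benjamini-Hochberg adjustment) admits a row that reaches 1 FPKM in 3 or more libraries, and Olfr672 alone among the class I rows passed that filter, through its 3 control libraries. It fell, a direction that this filter fixed, by 1.46 ± 0.22 on the log2 scale (SE, adjusted p = 0.00305, limma). Of the 15037 rows tested, 27.2% were lower and 10.9% higher. Of the 113 class I rows in the fit without the filter, 23 were lower and 0 higher (20.4%), where 17.0% of 27442 rows were lower and 5.38% higher. The class I share of lower calls was thus near the share over all rows, and 46 class I rows had an unadjusted p below 0.05. The other single-gene receptor rows counted 502 lower of 919 in the same fit. A pseudocount of 1 flattens values below 1 FPKM, and with a pseudocount of 0.1 the count of lower class I rows was 40. With a filter of 0.1 FPKM in 3 libraries 25 of 36 class I rows were lower, where 25.3% of 19997 rows were, but class I rows passed that filter through the controls. Without TNF replicate 3 or TNF replicate 4 the unfiltered count was 7, and without TNF replicate 1 it was 14. No class I row was called lower when replicate number was added as a block to the unfiltered fit, nor was any row of the table, and 28 class I rows then had an unadjusted p below 0.05. Replicate 2 occurs among controls alone and replicate 3 among TNF libraries alone. The block thus draws the group difference from replicates 1 and 4, and the loss of calls follows in part from using fewer libraries.

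Among the members of highest level, Olfr599 (position 103335986 to 103339003) led. It was at 0.727, 0 and 0 FPKM in TNF libraries and at 4.50, 1.22 and 0.949 FPKM in control libraries. TNF replicate 1 reached 76.5% of the lowest control, and control replicate 1 stood far above its group, so that 16.4% of the class I sum of that library came from this row. The difference was −1.26 ± 0.46 on the log2 scale, with an adjusted p of 0.108 (limma without filter). In TNF replicate 1, Olfr599 made up 46.5% of the class I sum.

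Olfr672 (position 104995964 to 105001917) was at 0.111, 0 and 0 FPKM in TNF libraries and at 1.22, 1.76 and 2.78 FPKM in control libraries, and it was the sole class I row at 1 FPKM or more in all 3 controls. Olfr598 lies next to Olfr599 in the cluster and was at 0.125, 0 and 0 FPKM in TNF libraries and 1.91, 1.45 and 0.766 FPKM in control libraries. Both were called lower in the unfiltered fit (adjusted p = 0.00743 and 0.0115, limma), with groups that did not overlap. The Olfr598 transcript is 96.7% identical to that of Olfr597 in GENCODE, and reads of such pairs may have been split between them, so its level is uncertain.

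Of the next rows, Olfr686 was at 0.0489, 0 and 0 FPKM in TNF libraries and 0.912, 1.89 and 0.980 FPKM in control libraries (−1.13 ± 0.18, adjusted p = 0.00873, limma without filter). Olfr610, Olfr601, Olfr549 and Olfr608 were at 0 in all 3 TNF libraries. Olfr610 was at 0.573, 1.62 and 1.46 FPKM in control libraries. Olfr601 was at 0.799, 1.08 and 1.54 FPKM in the controls. All 4 passed the unfiltered test as lower, with adjusted p-values of 0.0140 for Olfr610, 0.00514 for Olfr601, 0.00469 for Olfr549 and 0.00665 for Olfr608.

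Olfr549 was at 0.981, 1.48 and 0.819 FPKM in controls and Olfr608 at 1.35, 0.641 and 1.07 FPKM. Neither receptor had a control library near 0. The merged row of Olfr639 and Olfr643 was at 0 in all TNF libraries and at 0.473, 2.02 and 1.44 FPKM in control libraries (adjusted p = 0.0282, limma without filter). In GENCODE its exons overlap those of Olfr638 and Olfr640, so its level cannot be given to 1 receptor.

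Olfr653 and Olfr594, also among the 12 highest rows, did not pass. Olfr653 was at 0 in all TNF libraries and at 0.492, 0.487 and 2.98 FPKM in control libraries (adjusted p = 0.117, limma without filter). Olfr594 was at 0 in all TNF libraries and at 0.173, 1.004 and 1.91 FPKM in control libraries (adjusted p = 0.0921). For both rows control replicate 4 was the highest library, and the groups did not overlap. Without control replicate 4 the call for Olfr653 passed (adjusted p = 0.00319), as did that for Olfr594 without control replicate 1 (adjusted p = 0.0244).

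Several of the calls depended on single libraries. Without TNF replicate 3 or TNF replicate 4 those of Olfr598 (adjusted p = 0.0682 and 0.0676), Olfr686 (0.0559 and 0.0555) and Olfr610 (0.0738 and 0.0732) no longer passed. The call for Olfr610 was also lost without control replicate 4 (adjusted p = 0.0541). The merged row of Olfr639 and Olfr643 passed with all libraries or without control replicate 1, and its adjusted p was 0.0626 to 0.114 without any other library. Olfr601, Olfr549, Olfr608 and Olfr78 kept their calls whichever library was left out. The replicate block draws the group difference from replicates 1 and 4 alone. With it none of these rows was called in the unfiltered fit (limma, adjusted p = 0.258 to 0.298).

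**Figure D2:**
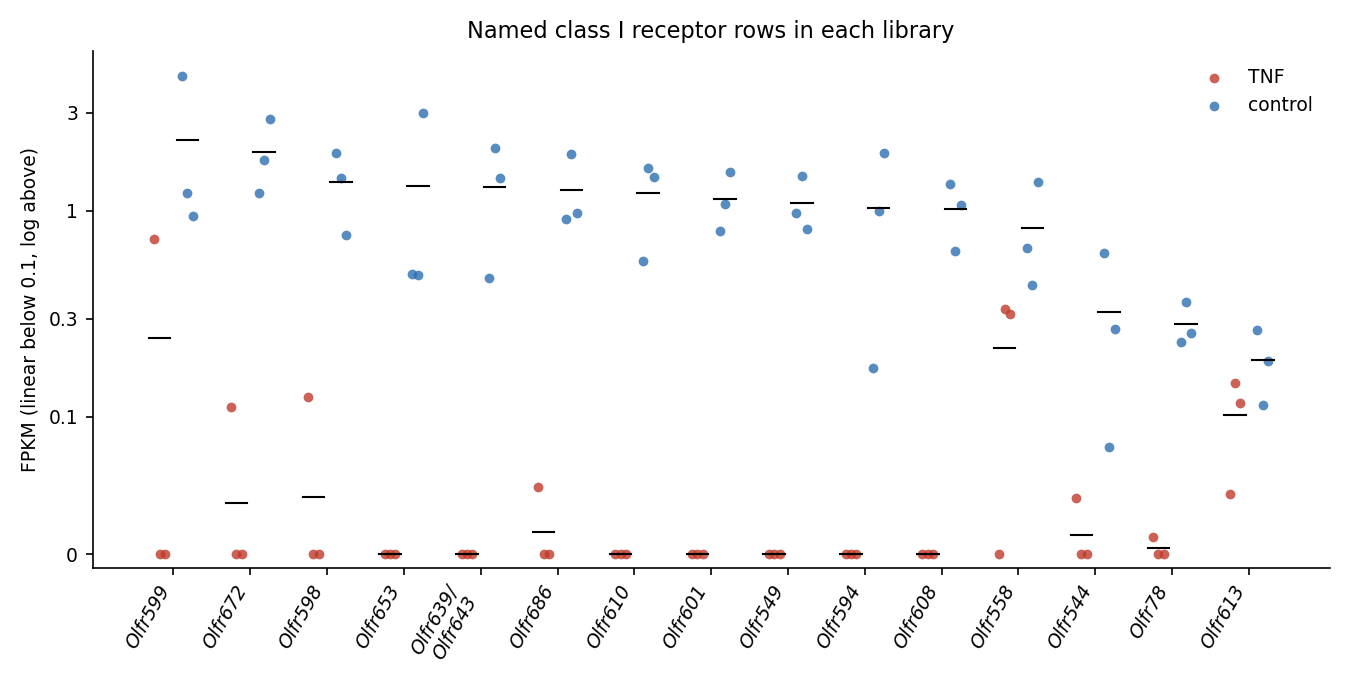
FPKM of 15 named class I rows in each library, on an axis that is linear below 0.1 and logarithmic above it, with TNF libraries in red at the left of each gene, control libraries in blue at the right, and group means as black lines. TNF points lie at 0 for most genes, while Olfr558 and Olfr613 have TNF points of 0.315 to 0.333 and 0.0436 to 0.147 FPKM beside their control points.

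The receptors of the cluster best known for their ligands are Olfr78, Olfr544 and Olfr558. Olfr78 responds to short-chain fatty acids and lactate and is also used outside the nose, in the carotid body and kidney. It was at 0.0128, 0 and 0 FPKM in TNF libraries and at 0.231, 0.363 and 0.254 FPKM in control libraries. The controls lay close together, and the row was called lower (−0.35 ± 0.05 on the log2(FPKM + 1) scale, adjusted p = 0.00695, limma without filter), although in GENCODE its exons overlap those of Olfr560. Olfr544, a receptor for azelaic acid that is also described in liver and fat, was at 0.0407, 0 and 0 FPKM in TNF libraries and at 0.622, 0.0783 and 0.268 FPKM in control libraries. All controls lay above all TNF libraries, yet the controls spread widely and the difference did not pass (adjusted p = 0.137). Its nearest receptor transcript, that of Olfr545, is 96.4% identical.

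Olfr558 (position 102702331 to 102712054), which responds to short-chain acids such as isovaleric acid and is described in vascular smooth muscle, behaved differently from library to library. It was at 0, 0.333 and 0.315 FPKM in TNF libraries and at 0.663, 0.435 and 1.38 FPKM in control libraries. All controls lay above all TNF libraries, and TNF replicates 3 and 4 were close to control replicate 2. The difference was −0.57 ± 0.22 and did not pass (adjusted p = 0.132, limma without filter). The row held 0%, 67.9% and 68.0% of the class I sum in TNF libraries and 2.41%, 1.09% and 2.66% in control libraries. In GENCODE its exons overlap those of Gm45688.

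Since Olfr558 is described in vascular smooth muscle, markers of smooth muscle and pericytes were set beside it, from a list of 11 genes written after the values were seen. Acta2, smooth muscle actin, was at 5.46, 113.8 and 182.7 FPKM in TNF libraries and 30.0, 26.4 and 73.0 FPKM in control libraries. Pdgfrb, a pericyte receptor, was at 0.185, 28.7 and 35.1 FPKM in TNF libraries and 2.88, 4.51 and 6.24 FPKM in control libraries. TNF replicate 1, where Olfr558 was at 0, was the lowest library for both. In TNF replicates 3 and 4 both lay above every control, whereas Olfr558 lay below every control. Rgs5, a list gene, went the other way in TNF replicate 1, its highest library. It was at 1395, 1338 and 1276 FPKM in TNF libraries and 350, 332 and 226 FPKM in control libraries. The list summed to 1405 to 1570.2 FPKM in TNF libraries and 332 to 403 FPKM in control libraries, most of it Rgs5. Of 7 list genes tested, Rgs5 was higher and 0 were lower, where 10.9% of all rows tested were higher and 27.2% lower. Without TNF replicate 1 the count of higher genes was 5. After scaling to horizontal basal cell markers Rgs5 did not pass (log2 0.73, adjusted p = 0.191). No list gene was at 0 in all libraries, and the part of these cells in the Olfr558 values was not tested.

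Olfr613 (position 103550368 to 103555504), singled out after its values were seen, was the only class I row above 0 in all 6 libraries. It was at 0.0436, 0.147 and 0.117 FPKM in TNF libraries and at 0.264, 0.115 and 0.186 FPKM in control libraries. The groups overlapped, and the difference of −0.11 ± 0.07 did not pass (adjusted p = 0.301, limma without filter). Its longest GENCODE transcript matched transcripts of 324 non-receptor genes over 10.4% of its length, besides the whole upstream window printed above. The part of such shared sequence in its values was not tested.

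**Figure D3:**
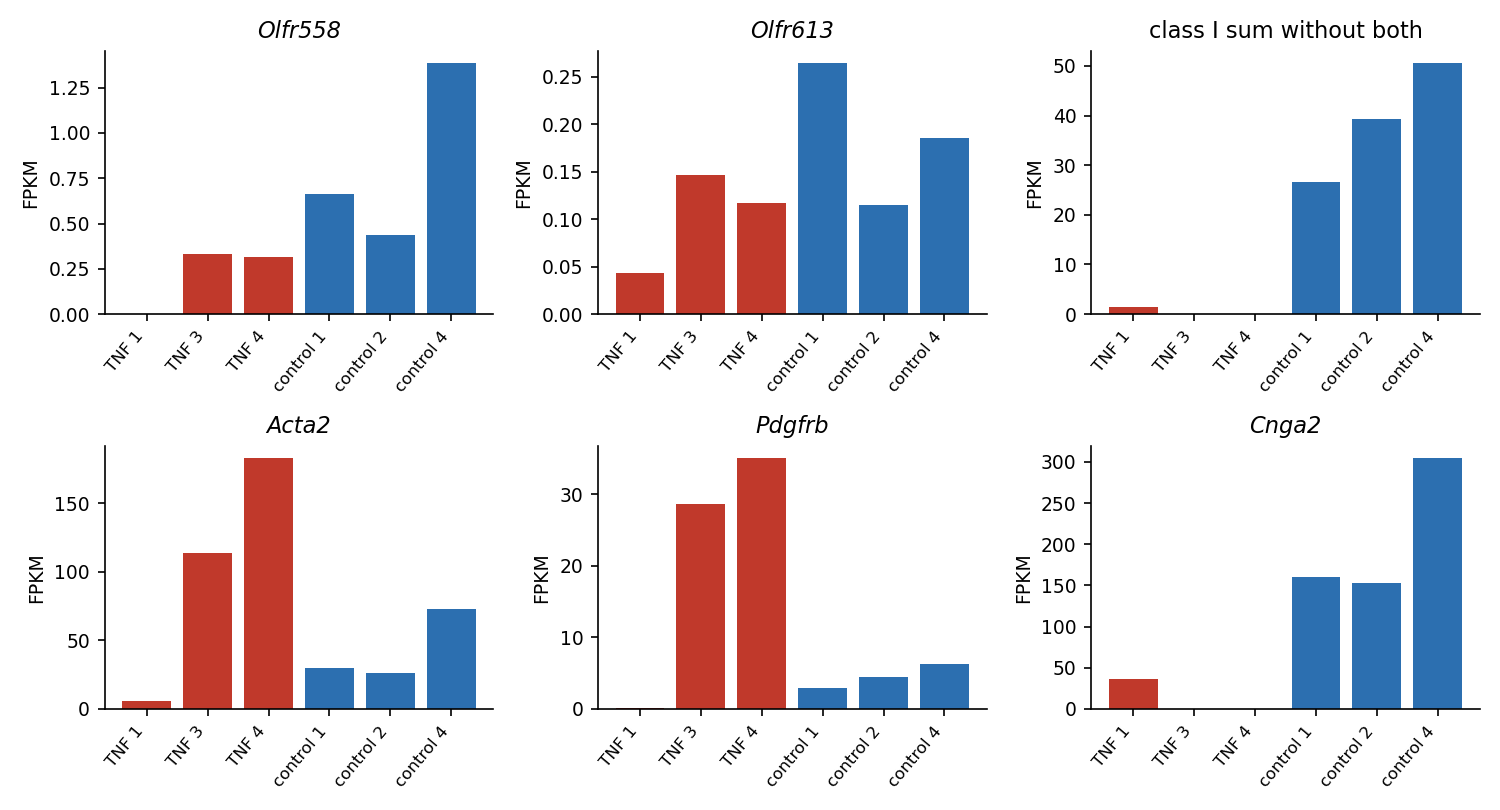
FPKM in each library (TNF in red, control in blue) of Olfr558, Olfr613, the class I sum without both, the smooth muscle and pericyte genes Acta2 and Pdgfrb, and the neuron channel gene Cnga2. Olfr558 and Olfr613 keep bars in TNF replicates 3 and 4, where the other class I rows sum to 0.011 and 0.0304 FPKM and Acta2 reaches 113.8 and 182.7 FPKM.

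The remaining class I values in TNF libraries were few and small. In TNF replicate 1, 12 of the 15 rows above 0 lay between 0.0128 and 0.0779 FPKM, and 11 of the 15 were above 0 in all controls. Olfr543 was at 0.0734 FPKM there, against 0.517, 0.277 and 1.35 FPKM in control libraries. Olfr620 lay within the range of the controls there, at 0.0480 FPKM against 0.0457, 0.0905 and 0.0395 FPKM. In TNF replicate 3 the third row was Olfr658, at 0.011 FPKM, and in TNF replicate 4 it was Olfr665, at 0.0304 FPKM. In units of each library's median low value, class I loci up to 1.1 kb together held 3.84, 0 and 0.642 in TNF libraries. They held 245, 407 and 525 in control libraries.

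Within the control libraries, class I levels were spread over many receptors. The control mean was at least 1 FPKM for 11 rows, 0.5 to 1 FPKM for 15, 0.1 to 0.5 FPKM for 57, below 0.1 FPKM for 30 and 0 for 12. The 12 highest rows by mean over all libraries held 39.5% of the class I control sum. The order of receptors differed between control libraries. Olfr599 was highest in control replicate 1, the Olfr639 and Olfr643 row in control replicate 2 and Olfr653 in control replicate 4.

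Only Olfr601 and Olfr672 were among the 12 highest rows in all 3 controls. Pearson correlations between control libraries across the 125 rows, on log2(FPKM + 0.1), were 0.503 to 0.570, as a description of rows that share libraries. For the 56 rows above 0 in all controls, the highest control exceeded the lowest by a median of 3.34-fold, with 8 rows within 2-fold and 15 above 5-fold. Other receptors above 0 in all controls had a median of 2.50-fold over 716 rows. At matched control means of 0.1 to 0.5 FPKM the medians were 4.30-fold for 29 class I rows and 3.48-fold for 192 other rows. They were 3.23-fold for 11 and 2.89-fold for 118 rows at 0.5 to 1 FPKM, and 2.39-fold for 10 and 2.26-fold for 106 rows at 1 to 2 FPKM. The class I median was the higher in each range, and the difference was not tested.

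Position along the cluster went with few differences in level. The median control mean was 0.179 FPKM for the 30 rows between 102 and 103 Mb, 0.138 FPKM for the 57 rows between 103 and 104 Mb, 0.212 FPKM for the 22 rows between 104 and 105 Mb, and 0.196 FPKM for the 16 rows beyond. The stretch from Olfr594 to Olfr610, picked after values were seen, holds 14 rows over 288 kb and 6 of the 12 highest. It summed to 0.852, 0 and 0 FPKM in TNF libraries and to 9.66, 10.1 and 8.95 FPKM in control libraries, 24.0% of the class I control level. Plus-strand and minus-strand rows had like control medians, 0.178 and 0.174 FPKM.

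The 12 rows at 0 in every library were Olfr547, Olfr574, Olfr583, Olfr585, Olfr603, Olfr630, Olfr66, Olfr631, Olfr642, Olfr646, Olfr663 and Olfr688. Several of them have near copies in the cluster, among them Olfr603 (99.5% identical to Olfr596) and Olfr688 (99.0% to Olfr687). Olfr583 and Olfr585, both at 0, are each other's nearest copy (96.1%). Among the 126 member genes, 24 have a receptor transcript at least 95% identical over at least 500 bases, untranslated parts included, and the highest identity was 99.5%. Rows of such genes can lose reads to their copies, and their zeros are uncertain. There are 10 member rows that share 2 loci with each other, Olfr642 and Olfr646 of the rows at 0 among them.

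**Figure D4:**
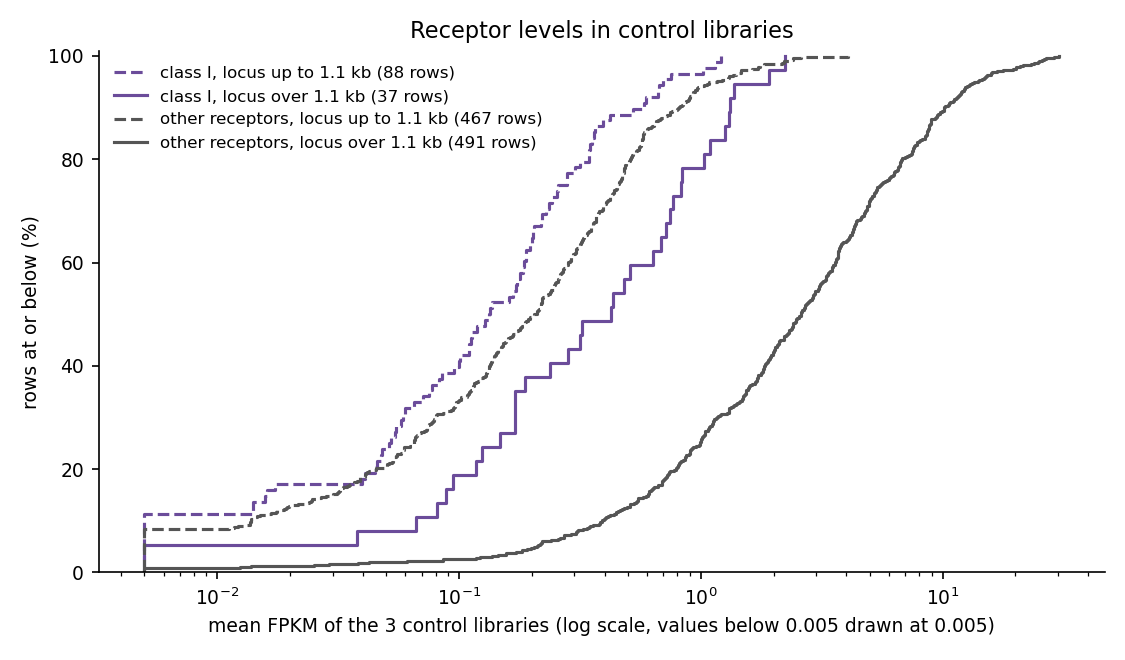
Share of receptor rows (%) at or below each mean FPKM of the 3 control libraries (log axis), for class I rows in purple and all other single-gene receptor rows in grey, with dashed lines for loci up to 1.1 kb and solid lines for longer loci. Class I rows lie to the left at both locus lengths, with medians of 0.134 and 0.424 FPKM against 0.204 and 2.59 FPKM for other receptors.

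Class I rows were lower in control libraries than other receptors. Their median control mean was 0.174 FPKM, against 0.617 FPKM for 958 other single-gene receptor rows, 0.683 FPKM for the 278 rows on chromosome 2 and 0.542 FPKM for the 108 other rows on chromosome 7. The highest class I control mean was 2.22 FPKM, and 271 other receptor rows (28.3%) exceeded it, with Olfr15 at 30.3 FPKM. The deposited gene models of the 2 groups also differ. Class I loci were no longer than 1.1 kb in 88 of 125 rows (70.4%), about the length of a receptor's coding sequence, against 48.7% of other receptor rows.

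Level went with locus length in both sets. Class I loci over 1.1 kb had a median control mean of 0.424 FPKM over 37 rows and shorter loci 0.134 FPKM over 88 rows. The same medians were 2.59 FPKM over 491 rows and 0.204 FPKM over 467 rows for other receptors. Class I rows were lower at both lengths, and more so among long loci. These differences between receptor sets are descriptions over genes that share 3 control libraries and were not tested.

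Receptor loss in the TNF group was set beside that of the other receptors. Rows above 0 in a control and at 0 in all TNF libraries made up 84.1% of class I rows with any value and 58.8% of other receptor rows. The share of rows with every control above every TNF library went the other way. It was 47.8% of class I rows with any value and 73.2% of other receptor rows. In TNF replicate 1 the class I sum was 3.92% of its control mean, the other receptor sum 11.9%, the chromosome 2 sum 10.3% and the other chromosome 7 sum 6.39%. In TNF replicates 3 and 4 the order was the other way, with 1.23% and 1.16% for class I and 0.689% and 0.459% for other receptors. Without Olfr558 and Olfr613, left out after their values were seen, the class I sums of those 2 libraries were 0.0282% and 0.0783% of the control mean.

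Because class I rows were lower in controls, rows of like control level were also compared. Between 1 and 2 FPKM in controls, 3 of 10 class I rows and 53 of 106 other receptor rows were above 0 in TNF replicate 1. Between 0.5 and 1 FPKM the counts were 3 of 15 and 32 of 131, and between 0.25 and 0.5 FPKM they were 4 of 20 and 18 of 141. Between 0.05 and 0.25 FPKM, the range with the most class I rows, they were 4 of 55 and 17 of 187. The class I share was the lower in 3 of these 4 ranges, and the higher between 0.25 and 0.5 FPKM. As summed level in percent of the control mean, TNF replicate 1 held 2.73, 2.17, 1.95 and 2.25% for class I and 5.71, 3.38, 5.21 and 7.73% for other receptors, taking the ranges from low to high. The class I percent was the lower in all 4, in values from a single library that were not tested.

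**Figure D5:**
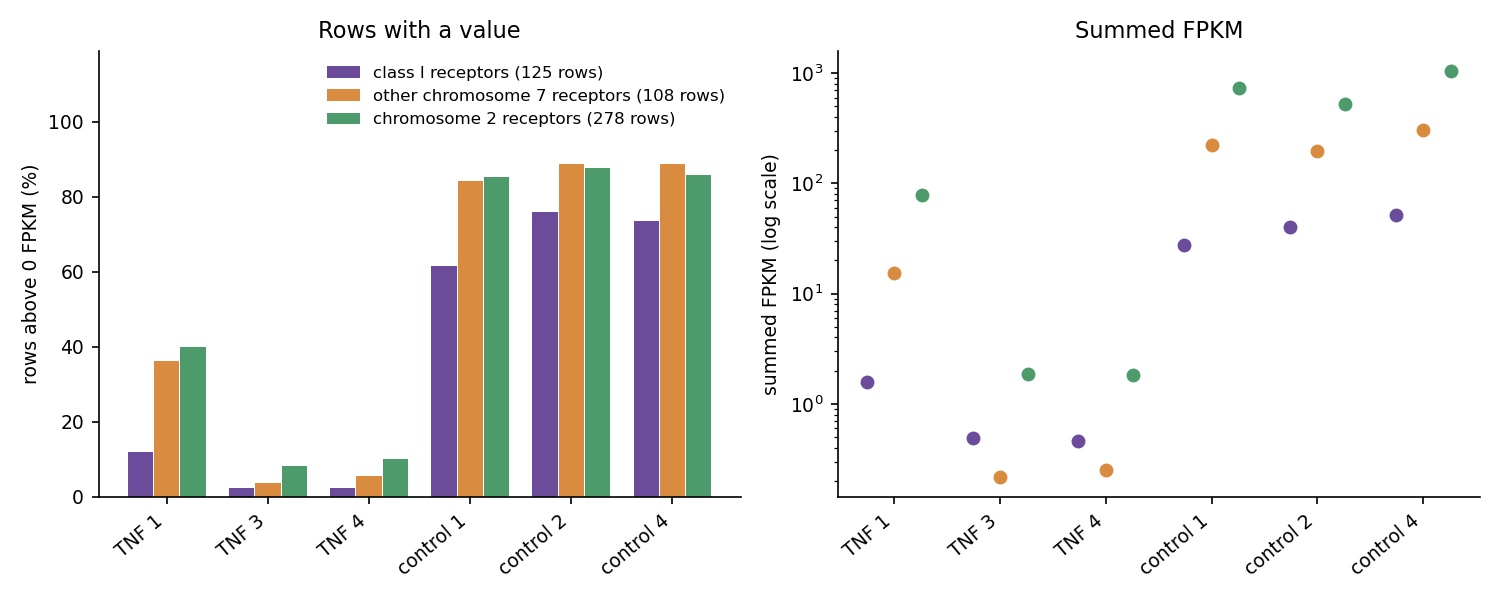
Rows above 0 FPKM (%, left) and summed FPKM (log axis, right) in each library for class I receptors, other chromosome 7 receptors and chromosome 2 receptors, with TNF libraries at the left of control libraries. Class I rows above 0 run from 2.4 to 12% in TNF libraries and from 61.6 to 76% in control libraries, below the other receptors in each library.

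The share of class I among all odorant receptor FPKM depended on a merged row and on Olfr558 and Olfr613. With all 1103 receptor rows it was 0.235% ± 0.126 in TNF libraries and 1.59% ± 0.445 in control libraries (SD, n = 3 each). A row that merges the interferon-induced gene Ifi47 with Olfr56, on another chromosome, held 117.7, 268.6 and 285.2 FPKM in TNF libraries and 10.2, 31.5 and 14.7 FPKM in control libraries. That was 28.6%, 93.4% and 95.1% of the receptor sum in TNF libraries. Over single-gene rows the class I share was 0.577%, 3.05% and 4.26% in TNF libraries and 1.28%, 2.14% and 1.68% in control libraries, so the direction of the mean turned and the groups overlapped. Without Olfr558 and Olfr613 as well, the share was 0.561%, 0.0702% and 0.292% in TNF libraries and 1.24%, 2.11% and 1.62% in control libraries. Every TNF library then lay below every control library, and the direction was again that found over all receptor rows. Olfr558 and Olfr613 were left out after their values were seen, and no high rows of other receptors were. This separation thus follows in part from that choice.

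Markers of mature olfactory neurons fell along with the receptors. All 12 markers were lower (limma, adjusted p below 0.05 over all rows, where 27.2% of rows were lower), and none was at 0 in a library. Without TNF replicate 1 the count was 12, and it was 4 to 6 when any other library was left out, being lowest without control replicate 4. Their mean was 97.0, 3.91 and 3.10 FPKM in TNF libraries and 309.9, 288 and 563 FPKM in control libraries. TNF replicate 1 held far more neuron marker than the other TNF libraries. The log2 ratio of the class I sum to the marker mean was −5.95, −3.00 and −2.74 in TNF libraries and −3.49, −2.85 and −3.43 in control libraries, so the groups overlapped with all rows counted. Without Olfr558 and Olfr613, which held 97.8% and 93.4% of the class I sum in TNF replicates 3 and 4, the ratio was −6.00, −8.48 and −6.67 in TNF libraries and −3.54, −2.87 and −3.48 in control libraries. The groups then did not overlap, and TNF replicate 1 was the highest TNF library instead of the lowest. As both rows were left out after their values were seen, this separation follows in part from that choice. The part of neuron content in the class I difference was not tested.

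The genes through which class I receptors signal were examined as a list of 15. Gnal, Adcy3, Cnga2, Cnga4, Gng13 and Ano2 are also among the mature neuron markers, so the counts of these lists overlap. Of 14 tested, 12 were lower and 0 higher, with a median log2 difference of −2.88, against −0.22 over all rows, of which 27.2% were lower. Gnal, the G protein alpha subunit that receptors activate, was at 35.1, 11.02 and 10.7 FPKM in TNF libraries and 133, 125 and 169 FPKM in control libraries (−3.05 ± 0.45, adjusted p = 0.00255, limma). Cnga2, a subunit of the channel opened by cyclic AMP, was at 36.8, 0.524 and 0.481 FPKM in TNF libraries and 159.7, 153 and 305 FPKM in control libraries (−5.48 ± 1.23, adjusted p = 0.0134, limma, and 0.0510 without control replicate 4). TNF replicates 3 and 4 were near 0 for Cnga2, as for nearly all class I rows. Slc24a4 and Slc12a2, which carry ions in and out of the cilia, were the 2 members that did not pass.

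Genes of receptor choice and trafficking formed a list of 19, of which 12 were lower and 1 higher (median −3.24), where 27.2% of all rows tested were lower and 10.9% higher. Lhx2, whose protein binds receptor enhancers, was at 16.5, 0.314 and 0.529 FPKM in TNF libraries and 165, 141 and 329.7 FPKM in control libraries (−5.92 ± 0.99, adjusted p = 0.00421, limma). Bcl11b, which in mice favours the choice of class II over class I receptors, was at 5.93, 3.88 and 3.03 FPKM in TNF libraries and 41.8, 42.0 and 61.0 FPKM in control libraries (−3.24 ± 0.27, adjusted p = 0.000479, limma). The groups lay far apart for both genes.

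Rtp1, a chaperone that brings receptors to the cell surface, fell by 5.45 ± 1.02 on the log2 scale (adjusted p = 0.00654, limma). It is also counted among the mature neuron markers. Emx2 and the Ebf factors, which bind receptor promoters, were lower too, with log2 differences of −3.59 for Emx2, −4.10 for Ebf1 and −4.13 for Ebf3. The histone methyltransferase gene Ehmt2 was the member that rose, by 0.65 ± 0.18 (adjusted p = 0.0277), a call lost when any library but TNF replicate 1 was left out. The other 6 list genes, Kdm1a, Lbr, Ehmt1, Cbx5, Bptf and Reep1, did not pass.

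Zone genes were compared because class I receptors belong to the dorsal zone. Of 8 tested, 3 were lower and 1 higher (median −0.67), near the 27.2% lower and 10.9% higher of all rows tested. Acsm4, a marker of dorsal neurons, was at 14.5, 0.606 and 1.48 FPKM in TNF libraries and 52.3, 80.1 and 56.5 FPKM in control libraries (−3.99 ± 0.80, adjusted p = 0.00873, limma). The adhesion gene Ncam2 and the guidance receptor gene Nrp2, both of ventral neurons, fell by 4.92 ± 0.38 and 2.54 ± 0.38. Robo2, a guidance receptor gene of dorsal neurons, was at 4.50, 10.6 and 13.7 FPKM in TNF libraries and 20.955, 16.1 and 13.6 FPKM in control libraries and did not pass (adjusted p = 0.131). Nqo1, also dorsal but not confined to neurons, was at 138, 147 and 143 FPKM in TNF libraries and 224, 363 and 97.6 FPKM in control libraries and did not pass (adjusted p = 0.435). Nfix, a nuclear factor gene tied to ventral receptor expression, rose by 1.24 ± 0.23 (adjusted p = 0.00662, and 0.0729 with the replicate block), but was at −0.17 when libraries were scaled to horizontal basal cell markers.

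The labelled cell type was checked through its own markers. Of 9 horizontal basal cell markers tested, 4 (Cav1, Itga6, Itgb4 and Col17a1) were higher and 0 lower, where 10.9% of all rows were higher. Krt5, Krt15, Trp63, Egfr and the merged row of Krt14 and Krt17 did not pass. The list summed to 7151, 4625 and 4451 FPKM in TNF libraries and 2352, 2862 and 694 FPKM in control libraries. Most of that sum was the Krt14 and Krt17 row (adjusted p = 0.0741, limma). The count of 4 was 1 without TNF replicate 3, 2 without TNF replicate 4, and 0 after scaling to these markers. For the counts of lower markers that follow, 27.2% of all rows tested were lower. All 6 immature neuron markers matched were lower, with Gap43, a growth cone gene, at 10.98, 0.151 and 0.197 FPKM in TNF libraries and 659.7, 458 and 1132 FPKM in control libraries. Of 5 sustentacular markers 4 were lower, and 2 without TNF replicate 3, TNF replicate 4, control replicate 1 or control replicate 2. Of 6 globose basal cell markers 1 was higher and 1 lower, and 0 of 4 microvillar markers passed. Control replicate 4, with the lowest basal cell sum, had the highest neuron marker mean and the highest class I sum.

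Other genes lie among the receptors of the cluster. The interval holds 48 rows that are not odorant receptors, of which 30 were at 0 in every library, and 19 rows of receptor pseudogenes. Of the pseudogene rows, 7 were above 0 in a control and 0 in a TNF library. Among 9 other rows tested, 3 were higher in TNF libraries, the merged Trim34a and Trim34b row, Gm15135 and Trim12a, and Hbb-bs, a beta globin gene, was lower. Of all rows tested, 10.9% were higher and 27.2% lower. The Hbb-bs call was lost when any library but control replicate 4 was left out. Trim12a, of a family of antiviral ubiquitin ligases, was at 10.9, 14.2 and 17.0 FPKM in TNF libraries and 4.06, 7.82 and 4.87 FPKM in control libraries (1.21 ± 0.28, adjusted p = 0.0158, limma), but stood at −0.070 when libraries were scaled to horizontal basal cell markers. Its call was lost without TNF replicate 3, TNF replicate 4 or control replicate 1 (adjusted p = 0.0587, 0.0628 and 0.0585). Lower receptor values and higher neighbours thus lay in the same interval, with the 3 higher rows sharing a deposited locus.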

How the data were processed

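Messenger RNA was measured in 6 libraries of sorted cells. Per the labels' protocols, a SMARTer kit amplified 5 ng of RNA for Nextera libraries. The submitters' processing notes name bcl2fastq, FastQC (0.10.1), TopHat2 (2.1.1), Cuffdiff (2.2.1) and mm10, without settings. The authors deposited FPKM values per row and library, under a title that says raw counts. Because 99.98% of values above 0 had decimals, no count model was fitted, and read depth is unknown.

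Groups were compared with limma 3.58.1 (R 4.3.3) on log2(FPKM + 1) with an intensity trend, over rows that reached 1 FPKM in 3 or more libraries, with Benjamini-Hochberg adjustment and a threshold of 0.05. It was tested on simulated data, with changes put only into rows of higher level than any class I row. That test thus does not cover the class I rows. Fold changes on this scale understate the change of low genes. Whether libraries are separate animals is not stated, and p-values cover only the spread between these libraries. The members and gene lists were chosen with earlier results of these data known. Named members were every row passing the filter, the 12 of highest mean, and Olfr78, Olfr558 and Olfr544, with at most 4 called genes of each list and Omp, Cnga2, Lhx2, Rtp1 and Bcl11b. Omp, in a merged row with Capn5, and some genes this rule took are omitted for length. Deposited mm10 loci are given from 1. Strand, exon overlaps and transcripts come from GENCODE M21 (GRCm38), whose gene bounds equal the deposited ones for 10 of 125 members, so an overlap or identity there need not hold for the deposited models. Receptor transcripts were compared with blastn. Alternatives were other pseudocounts, filters, scalings, an adjusted p below 0.01, each library left out and a replicate block. Outlying samples were not looked for in groups of 3.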

Additional observations from a re-analysis of the deposited data

How the results depend on the processing

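The class I sum was lower in TNF libraries under every alternative run, with log2 ratios of −6.39 to −5.28 when each library was left out and −7.39 after scaling to horizontal basal cell markers. Its share of receptor FPKM had log2 ratios of −3.29 to −2.52 with each library left out, and turned to 1.65 without merged or shared-locus rows, where the Ifi47 and Olfr56 row drops out, and to −1.89 when Olfr558 and Olfr613 were left out as well, an alternative chosen after seeing the data. Relative to neuron markers the class I sum had a log2 ratio of group means of −0.14. With each library left out it ran from −0.59 to 0.36, being 0.36 without TNF replicate 1 and 0.10 without control replicate 2. It was −3.46 without Olfr558 and Olfr613, again a choice made after seeing the data. Mean counts of rows at 1 FPKM or more were 0 in TNF and 10.3 in control libraries, and 68.3 control rows reached 0.1 FPKM. Of all rows, 5718 were called, 3740 to 7151 with each library left out, 3291 at an adjusted p below 0.01 and 9575 after scaling to basal cell markers. Class I rows called were 1 with each library left out, 0 after quantile normalization, 23 without a filter and 25 of 36 with a filter of 0.1 FPKM, which rows passed through the controls. The unfiltered count of 23 was 8 at an adjusted p below 0.01, 40 with a pseudocount of 0.1 and 7 to 34 with each library left out, being 7 without TNF replicate 3 or 4 and 14 without TNF replicate 1. Transduction genes counted 12 lower, 4 at an adjusted p below 0.01 and 5 to 13 with each library left out, being 7 without TNF replicate 3 and 5 without control replicate 4. Zone genes counted 3 lower and 7 after basal cell scaling. Interval genes counted 3 higher, 1 at an adjusted p below 0.01, 7 after quantile normalization, 0 after basal cell scaling and 1 to 5 with each library left out, being 1 without TNF replicate 3 or 4 and 5 without TNF replicate 1 or control replicate 2. Basal cell scaling turned Itga6 to −0.062, Cav1 to −0.076, Trim12a to −0.070 and Nfix to −0.17, and quantile normalization turned Olfr613 to 0.11. Of 913 other settings of 58 single genes, 822 kept direction and side of the threshold, 81 lost the call, 5 gained one and 5 turned. Except where a setting's construction shows it, the cause was not tested.

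Replicate numbers 1 and 4 occur in both groups, and same-numbered libraries did not deviate together (correlations −0.06 and −0.09). So few pairs cannot show whether the numbers pair libraries, and the labels do not say. Replicate number as a block draws the group difference from replicates 1 and 4 alone. With it, 2990 rows of the filtered fit were called, 0 higher interval genes among them. Olfr672 was called there too, in the direction fixed by a filter that it passed through its controls. In the unfiltered fit with the block 0 rows of the table were called, Olfr672 and the other class I rows included. Read depth is unknown, and class I values were small. On average 68.3 class I rows reached 0.1 FPKM in control libraries and 2.33 in TNF libraries. Values at 0 are thus below detection and not shown to be absent.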

Other observations

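Trace amine receptors, a separate family of olfactory receptors on chromosome 10, were looked at after the class I values were seen. Of 15 rows, 3 were at 0 in every library, and 4 passed the filter of 1 FPKM in 3 libraries, all of them through the controls. Each of those was called lower in TNF libraries (limma, adjusted p below 0.05), a direction that the filter fixed. Taar6 was at 0, 0 and 0 FPKM in TNF libraries and at 6.87, 8.17 and 8.45 FPKM in control libraries, above every class I row in each control library. The family summed to 0.739, 0 and 0 FPKM in TNF libraries and to 21.8, 22.5 and 20.5 FPKM in control libraries, closer together than the class I sums of the same controls.

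Trim5, a gene inside the class I cluster, was at 260.5, 0.487 and 1.19 FPKM in TNF libraries and at 0.196, 0.279 and 0.258 FPKM in control libraries. The high value was in TNF replicate 1 alone, and its row shares a deposited locus with other Trim genes.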
